A study of Mus musculus with 6 samples.

Results

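The small leucine-rich proteoglycans described here were 9 genes, Dcn, Bgn, Aspn, Fmod, Lum, Prelp, Omd, Ogn and Podn, taken by name from 54146 gene identifiers. They were measured by total RNA sequencing in NIH/3T3 cells, an immortalised fibroblast line from Swiss albino mouse embryos, grown in DMEM with foetal bovine serum. The 3 groups were Mki67-/- clone 1, Mki67-/- clone 2 (both knockout, KO) and wild type (WT), with 2 libraries each. Mki67 encodes Ki-67, a nuclear protein of dividing cells, and the design asks how its loss changes the transcriptome. Each knockout group is 1 clone, so knockout and clonal history cannot be told apart within a group. The editing of the clones, and whether replicates are separate cultures, were not given in the sources used here. Each p-value below measures library-to-library spread alone, which may be technical.

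Small leucine-rich proteoglycans are secreted proteins built around a curved array of leucine-rich repeats, and most carry chondroitin, dermatan or keratan sulfate chains. They bind collagen fibrils and control their diameter and spacing, and several bind growth factors of the TGF-beta family. Fibroblasts of connective tissue are a main source of them. Class I holds decorin (Dcn), biglycan (Bgn) and asporin (Aspn), class II holds fibromodulin (Fmod), lumican (Lum), prolargin (Prelp) and osteomodulin (Omd), class III holds osteoglycin (Ogn), and podocan (Podn) stands with a separate class.

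Gene counts per library ranged from 15087148 to 19678782 in the KO clones, against 3873249 and 11377172 in WT. WT replicate 1 was therefore the shallowest library, in which 3 counts equal 0.775 CPM (counts per 1000000 gene counts of the library). The targeted gene followed the labels, and the CPM of Mki67 was 4.27 and 4.71 for clone 1, 4.41 and 7.82 for clone 2, and 46.7 and 53.8 for WT. All 10 fibroblast markers exceeded 1 CPM in every library. Of 6 epithelial markers only Epcam, an epithelial surface protein, had 0 counts in every library. The 6 summed to 1.20 to 2.08 CPM in KO libraries and 1.03 to 1.23 CPM in WT. The epithelial check was made because the extraction protocol names 4T1, a mouse mammary tumour line, while titles and sources name NIH/3T3.

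Of the 9 genes, Bgn was abundant in all groups, Fmod was found mainly in clone 1, and Dcn was nearly absent from both clones and present at a low level in WT. Ogn was low everywhere, Aspn, Omd and Prelp gave at most 5 counts in any library, and Lum and Podn gave none. Levels are compared between groups in CPM. Genes are compared with each other only as TPM (counts divided by exon length and scaled to a fixed total within a library).

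**Figure D1:**
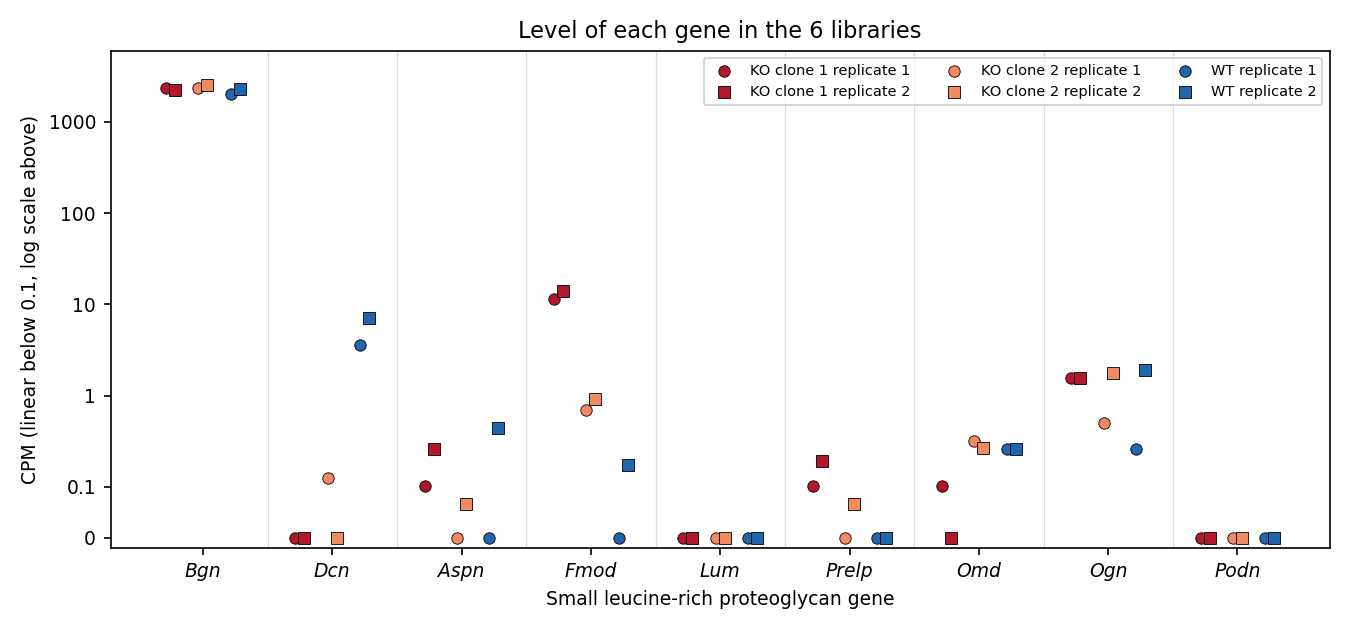
CPM of the 9 genes in each of the 6 libraries, on an axis that is linear below 0.1 and logarithmic above. Red and orange points are KO clone 1 and clone 2, blue points are WT, circles are replicate 1 and squares replicate 2. Bgn lies at 2023 CPM or more in all 6 libraries, Dcn is highest in WT and Fmod is highest in clone 1.

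Each gene was fitted with all others by edgeR's quasi-likelihood test, and calls were made at an adjusted p below 0.05 (Benjamini-Hochberg, over 13120 tested genes). Counts were high enough to test 4 of the 9 genes (Bgn, Dcn, Fmod and Ogn), while 5 were not tested. Dcn reached the level of the low-count filter only in its WT libraries, and Fmod only in the KO libraries. Against WT, the mean of both clones was called higher in 1 gene (Fmod) and lower in 1 gene (Dcn), where 16.6% of all tested genes were called higher and 18.2% lower. In clone 1 against WT the same calls stood beside 15.2% of all genes higher and 16.5% lower. In clone 2 against WT they stood beside 12.9% higher and 14.5% lower. In clone 2 against clone 1 the 1 call was Fmod, lower in clone 2, where 1.18% of all genes were called higher and 2.36% lower. Dcn and Fmod entered the test through the groups where they were high, so the member calls are not read against these shares. The comparisons with WT share its 2 libraries.

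Biglycan, a class I proteoglycan with a pair of chondroitin or dermatan sulfate chains, was by far the most abundant of these genes. Its gene lies on the X chromosome of GRCm38 from 73483602 to 73495933 on the plus strand. The RefSeq window on GRCm38.p6 around its start, shown as the promoter of the one member that every library expressed strongly, runs 250 bases before to 50 after the start at chrX:73483351-73483650. It is printed 5′ to 3′ with CpG dinucleotides in capitals.
Bgn promoter window: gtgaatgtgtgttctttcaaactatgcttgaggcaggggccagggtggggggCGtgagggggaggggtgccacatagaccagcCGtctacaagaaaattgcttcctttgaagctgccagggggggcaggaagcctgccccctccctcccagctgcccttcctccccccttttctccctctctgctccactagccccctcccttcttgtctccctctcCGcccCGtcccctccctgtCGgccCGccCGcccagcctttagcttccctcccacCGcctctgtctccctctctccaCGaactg
This window held 9 CpG and 63.7% G or C, against medians of 7 CpG and 52.7% over 32851 windows of the same length. The GC box GGGCGG, searched on both strands, occurred 3 times in it, and 35.7% of all windows hold at least 1 copy. The TATA motif TATAAA, held by 13.6% of all windows, was not in it. Nor was the AP-1 motif TGANTCA, held by 7.81%.

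Bgn counts were 46064 and 34414 in clone 1, 37019 and 38247 in clone 2, and 7834 and 26332 in WT. These correspond to 2281 ± 84.3 CPM in clone 1, 2434 ± 142 CPM in clone 2 and 2169 ± 206 CPM in WT (SD, n = 2 each). The clone 1 range overlapped that of WT, and the clone 2 range began just above it. The log2 fold change of the mean of both clones against WT was 0.04 ± 0.13 (SE), with a 95% interval of -0.23 to 0.32 (adjusted p = 0.838, edgeR). Clone 1 against WT gave -0.0044 ± 0.15 (adjusted p = 0.987), and clone 2 against WT gave 0.09 ± 0.15 (adjusted p = 0.710). Clone 2 against clone 1 gave 0.09 ± 0.15 (adjusted p = 0.849). None of the 4 comparisons was larger than the spread between libraries.

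Within each group Bgn ranked high among the 21906 protein-coding genes by mean TPM, at place 66 in clone 1, 68 in clone 2 and 86 in WT. It made up 98.8% of the summed TPM of the 9 genes in clone 1, 99.8% in clone 2 and 99.6% in WT. Mean TPM was 648 in clone 1, 641 in clone 2 and 487 in WT over the full exon length. TPM is not read between groups here, because genes that do not code for protein took 54.5% to 58.9% of all TPM in KO libraries and 63.6% in both WT libraries.

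Decorin, the class I proteoglycan that binds collagen I and TGF-beta, was nearly absent from the KO clones. The gene lies on chromosome 10 from 97479609 to 97518143 on the plus strand. It had 0 and 0 counts in clone 1, 2 and 0 counts in clone 2, and 14 and 81 counts in WT. The 2 counts of clone 2 equal 0.126 CPM, and the WT counts equal 3.61 and 7.12 CPM. All 4 KO libraries lay below both WT libraries. The highest upper limit of a KO library was 0.455 CPM (95% Poisson), and the lowest lower limit of a WT library was 1.98 CPM.

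Set as a ratio of pooled CPM, Dcn was 206 times lower in the clones together than in WT, with a 95% counting interval of 55.5 to 1725. The edgeR test, made on the mean of the clones' log levels, gave an adjusted p of 5.27e-07. Clone 1, with 0 counts, was at least 73.0-fold lower than WT, taking 3 counts over the group as the floor (adjusted p = 3.15e-06). Clone 2 was 96.4 times lower than WT, interval 26.0 to 808 (adjusted p = 8.45e-06). Between the clones no fold can be given, since both had 3 counts or fewer (adjusted p = 0.537). The Dcn call against WT was kept under every alternative run, but the size depended on single libraries. Without WT replicate 2 the ratio over both clones was 119, and without clone 2 replicate 1 it became a bound of at least 104. For clone 1 the bound was 32.2 without its replicate 1, 40.9 without its replicate 2 and 42.4 without WT replicate 2, and for clone 2 the ratio was 49.4 without its replicate 2 and 55.9 without WT replicate 2, and a bound of at least 31.3 without its replicate 1. In bulk RNA, fewer Dcn-expressing cells and less Dcn RNA per cell cannot be told apart.

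Even in WT, decorin was a minor transcript, at 1.27 TPM on average and place 9398 among protein-coding genes, and 0.259% of the TPM of the 9 genes. The counts for Dcn, Fmod and Ogn with their counting intervals are plotted by library.

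**Figure D2:**
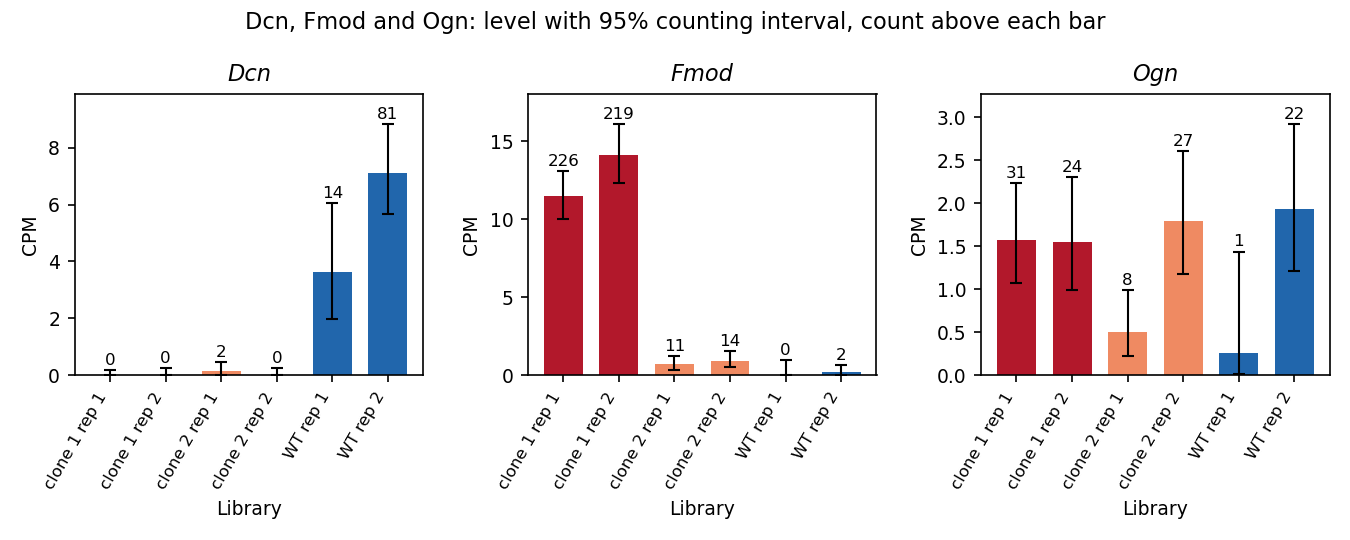
Level of Dcn, Fmod and Ogn in CPM in each library, with bars starting at 0, whiskers giving the 95% Poisson interval (counting error only) and the count printed above each bar. KO clone 1 is red, clone 2 orange and WT blue. Dcn stands at or near 0 in both clones and at 3.61 and 7.12 CPM in WT, Fmod at 11.5 and 14.1 CPM in clone 1 and under 1 CPM elsewhere, and Ogn differs more within clone 2 and WT than between groups.

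Asporin, the class I member without a usual glycosaminoglycan chain, had 2 and 4 counts in clone 1, 0 and 1 in clone 2, and 0 and 5 in WT. The pooled levels were 0.171 CPM in clone 1, 0.0323 CPM in clone 2 and 0.328 CPM in WT. Clone 2 was 10.1 times lower than WT, with a counting interval of 1.14 to 480 that rests on 1 and 5 counts. The groups overlapped library by library, since WT replicate 1 had no count.

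Fibromodulin, a keratan sulfate proteoglycan that binds collagen I and governs fibril assembly in tendon, was highest in clone 1. The gene lies on chromosome 1 from 134037254 to 134048277 on the plus strand. Its RefSeq window on GRCm38.p6, shown because Fmod was the member that differed most between the clones, lies at chr1:134037004-134037303, with CpG in capitals as for Bgn.
Fmod promoter window: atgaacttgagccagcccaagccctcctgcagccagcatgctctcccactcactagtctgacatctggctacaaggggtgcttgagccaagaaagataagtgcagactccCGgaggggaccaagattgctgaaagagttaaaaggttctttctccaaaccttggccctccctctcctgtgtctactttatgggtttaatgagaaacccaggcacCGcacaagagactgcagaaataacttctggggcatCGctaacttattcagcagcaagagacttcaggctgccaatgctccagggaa
It held 3 CpG and 51.0% G or C, fewer CpG than the Bgn window, and 23.3% of all windows hold fewer. None of the 3 motifs searched in the Bgn window was found in these 300 bases on either strand.

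Fmod counts were 226 and 219 in clone 1, 11 and 14 in clone 2, and 0 and 2 in WT. As CPM the libraries had 11.5 and 14.1 in clone 1, 0.693 and 0.928 in clone 2, and 0 and 0.176 in WT. The 3 groups did not overlap, with clone 1 highest and WT lowest, although the floor of WT replicate 1 (0.775 CPM) lies at the clone 2 level. Clone 1 exceeded WT by a ratio of 96.5, interval 26.6 to 799 (adjusted p = 3.74e-07, edgeR). Clone 2 exceeded WT by 6.16, interval 1.54 to 53.7 (adjusted p = 0.0307). The clones together exceeded WT by 54.2, interval 14.9 to 449 (adjusted p = 6.68e-05). Clone 2 was lower than clone 1 by a log2 fold change of -3.97 ± 0.27, or 15.7 times, interval 10.5 to 24.5 (adjusted p = 1.26e-06).

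The clone 2 call for Fmod did not hold in DESeq2 (adjusted p = 0.0816), without WT replicate 1 (0.0509), without WT replicate 2 (0.0598) or without clone 2 replicate 2 (0.101), and the call on both clones was lost when they were fitted as 1 group (0.0612). Without WT replicate 2, WT had 0 counts and the ratios became bounds of at least 16.3 for clone 1, 1.04 for clone 2 and 9.18 for both. By mean TPM, Fmod stood at 6.71 in clone 1, place 6744 of protein-coding genes, at 0.393 in clone 2 and at 0.0374 in WT. In clone 1 it was the second of the 9 genes after Bgn, with 1.02% of their TPM, a place that Ogn held in clone 2 and Dcn in WT.

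The other class II genes were at the limit of detection. Lumican, a keratan sulfate proteoglycan best known from the cornea, had 0 counts in all 6 libraries, and 3 counts over the group would equal 0.0853 CPM in clone 1, 0.0969 CPM in clone 2 and 0.197 CPM in WT, the level that a count of 0 allows. Prolargin, which binds collagen and heparan sulfate near basement membranes, had 2 and 3 counts in clone 1, 0 and 1 in clone 2, and 0 and 0 in WT. The pooled clone 1 level of 0.142 CPM was under the WT floor of 0.197 CPM, so a difference from WT was not detectable at this depth. Osteomodulin, a keratan sulfate proteoglycan of bone matrix, had 2 and 0 counts in clone 1, 5 and 4 in clone 2, and 1 and 3 in WT. Clone 2 exceeded clone 1 by a ratio of 5.11, with a counting interval of 1.06 to 48.6, and clone 1 against WT gave 0.217, interval 0.0196 to 1.51. Omd was not tested, and these intervals rest on 2, 9 and 4 pooled counts (clone 1, clone 2 and WT) and cover counting error only.

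Osteoglycin, also called mimecan, is a class III proteoglycan of bone, cornea and vessel wall. Ogn had 31 and 24 counts in clone 1, 8 and 27 in clone 2, and 1 and 22 in WT. In CPM these were 1.58 and 1.55 in clone 1, 0.504 and 1.79 in clone 2, and 0.258 and 1.93 in WT. Replicates of clone 2 and of WT lay further apart than any group means. The mean of both clones against WT was -0.21 ± 0.52 on the log2 scale, interval -1.31 to 0.90 (adjusted p = 0.794, edgeR). Clone 1 against WT gave 0.03 ± 0.55 (adjusted p = 0.979), clone 2 against WT -0.44 ± 0.59 (adjusted p = 0.625), and clone 2 against clone 1 -0.46 ± 0.49 (adjusted p = 0.737). For clone 2 against WT the 95% interval ran from -1.70 to 0.83, so depth and spread leave a wide range of changes possible. Podocan, which inhibits smooth muscle cell growth in vessels, had 0 counts throughout, which allows the same levels as for Lum. Podn lies on the same strand as the overlapping Scp2, a sterol carrier gene, and reads over both genes are left out of such counts.

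Several of these genes sit in clusters with relatives, and most neighbours were silent or nearly so. On chromosome 1, Optc (opticin of the eye), Prelp and Fmod had 7, 5 and 445 pooled counts in clone 1, 1, 1 and 25 in clone 2, and 0, 0 and 2 in WT. All 3 had the most counts in clone 1, but the pooled clone 1 levels of Optc (0.199 CPM) and Prelp (0.142 CPM) were not clearly above the WT floor of 0.197 CPM, with Optc just over it and Prelp under it. Beyond Fmod, Btg2, an antiproliferative gene 26.9 kb away, averaged 26.8 CPM in clone 1, 20.8 CPM in clone 2 and 20.2 CPM in WT, and was not called for both clones against WT (0.12 ± 0.14, adjusted p = 0.535).

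On chromosome 10, Dcn is followed by Lum, Kera (keratocan of the cornea) and Epyc (epiphycan of cartilage), and Dcn alone of these was counted in any library. The nearest protein-coding gene before Dcn, Btg1, lies 857 kb away. By clone it was called lower in clone 1 (adjusted p = 0.00258) and not called in clone 2 (adjusted p = 0.0729). The mean of both clones was called lower (-0.48 ± 0.11, adjusted p = 0.00453), at 134 CPM in clone 1, 165 CPM in clone 2 and 196 CPM in WT. Leaving out WT replicate 2 ended this call (adjusted p = 0.0508). On chromosome 13, Ecm2 is followed by Aspn, Omd and Ogn, and these 3 overlap Cenpp, a centromere protein gene on the other strand. Cenpp averaged 4.03 CPM in clone 1, 5.64 CPM in clone 2 and 3.83 CPM in WT, and was not called (adjusted p = 0.491). Counts were taken by strand.

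**Figure D3:**
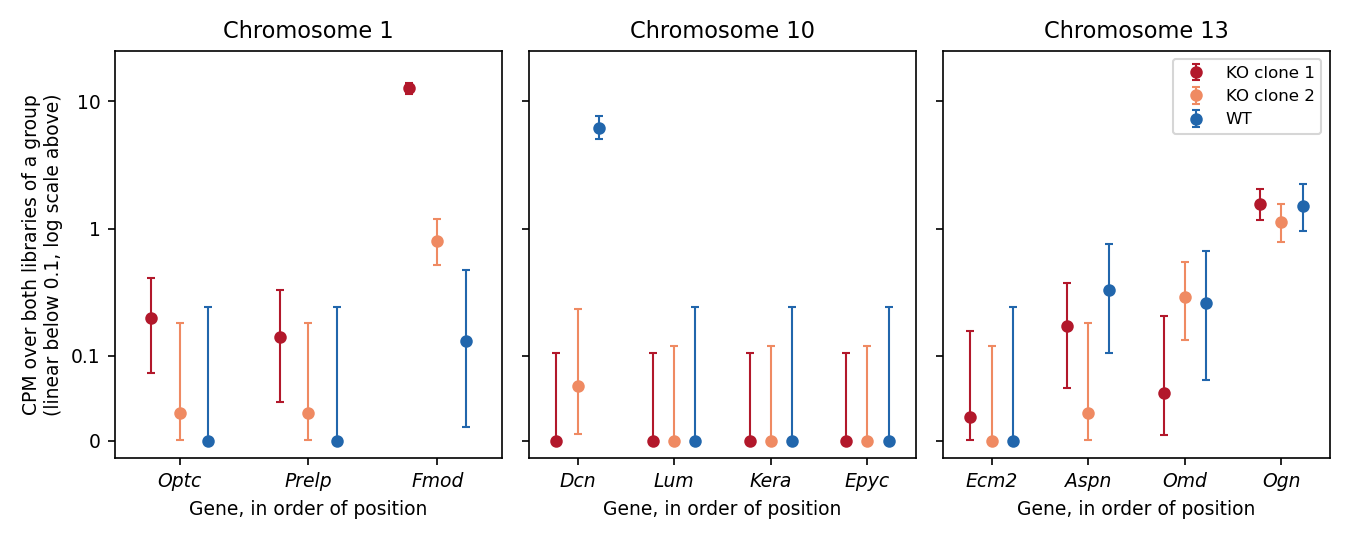
Pooled CPM of clustered genes in order of position on 3 chromosomes, on an axis linear below 0.1 and logarithmic above, with 95% counting intervals as whiskers. KO clone 1 is red, clone 2 orange and WT blue. Fmod, Dcn and Ogn are the genes in each panel that rise above 1 CPM in at least 1 group, and the others stay near the floor.

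Other leucine-rich proteoglycan genes that are not among the 9 were mostly silent as well. Of 9 such genes, 2 were tested. Podnl1, a podocan relative, averaged 93.4 ± 7.99 CPM in clone 1, 78.8 ± 4.25 CPM in clone 2 and 64.2 ± 9.56 CPM in WT (SD, n = 2 each). By clone it was called higher in clone 1 (adjusted p = 0.0222) and not in clone 2 (adjusted p = 0.269). In the mean of both clones it was called higher (0.35 ± 0.13, adjusted p = 0.0468), but the call was lost under 8 of 15 alternatives. These were RLE scaling, DESeq2, the fit of both clones as 1 group and leaving out any library other than WT replicate 1, with the smallest change (0.18, adjusted p = 0.392) without WT replicate 2. Tsku (tsukushi), a secreted modulator of BMP and Wnt signals, averaged 49.0 ± 2.61 CPM in clone 1, 40.5 ± 1.44 CPM in clone 2 and 34.6 ± 5.08 CPM in WT, and was not called over both clones (0.31 ± 0.14, adjusted p = 0.0943). Kera, Epyc and Chad had 0 counts in every library, and Optc, Chadl, Nyx and Ecm2 had at most 4.

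The chains of these proteoglycans are built by enzymes that were largely expressed. In the glycosaminoglycan linker list, 6 of 7 genes were tested, and 2 were called higher and 2 lower in the mean of both clones. Beside this and each further list, 16.6% of all tested genes were called higher and 18.2% lower. The median log2 fold change of the linker list was 0.05, against 0.005 for all tested genes. B3galt6, which adds the third sugar of the linker, averaged 12.5 ± 1.07 CPM in clone 1, 17.2 ± 1.71 CPM in clone 2 and 28.3 ± 2.76 CPM in WT (-1.04 ± 0.14, adjusted p = 9.96e-05). Of 16 chondroitin and dermatan sulfate genes, 13 were tested, 3 were called higher and 2 lower, with a median of 0.02. The epimerases that turn chondroitin into dermatan sulfate were both higher. Dse averaged 68.9 ± 15.8 CPM in clone 1, 64.2 ± 10.3 CPM in clone 2 and 33.6 ± 7.76 CPM in WT (0.87 ± 0.17, adjusted p = 0.00139). Dsel averaged 13.6 ± 4.82 CPM in clone 1, 13.5 ± 0.0697 CPM in clone 2 and 5.79 ± 0.517 CPM in WT (1.11 ± 0.24, adjusted p = 0.00251).

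Of 8 keratan sulfate genes, 5 were tested, 0 were called higher and 2 lower, with a median of -0.22. Over all tested genes the shares were 16.6% higher and 18.2% lower. B4galt4, a galactosyltransferase of keratan sulfate chains, moved in opposite directions in the clones. It had 13.1 ± 0.195 CPM in clone 1, 0 counts in clone 2 and 6.14 ± 1.01 CPM in WT. Clone 1 exceeded WT by a ratio of 2.01 (adjusted p = 0.00420), while clone 2 was at least 66.97-fold lower than WT (adjusted p = 4.22e-07). The mean of the clones' log levels was therefore called lower (adjusted p = 1.64e-05), although their pooled counts were 1.07 times those of WT. B4galt1, a broad galactosyltransferase, fell by 0.43 ± 0.11 on the log2 scale over both clones (adjusted p = 0.00865). By clone it was called in clone 2 (-0.60 ± 0.13, adjusted p = 0.00393) and not in clone 1 (-0.26 ± 0.13, adjusted p = 0.140).

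Among 13 proteases that cleave these core proteins, 8 were tested, 3 were called higher and 2 lower, with a median of 0.25. Over all tested genes the shares were 16.6% higher and 18.2% lower. Adamts5, an aggrecanase, averaged 49.5 ± 11.6 CPM in clone 1, 54.4 ± 1.11 CPM in clone 2 and 17.3 ± 2.90 CPM in WT (1.47 ± 0.17, adjusted p = 1.67e-05). Htra1, a serine protease, averaged 12.8 ± 1.51 CPM in clone 1, 20.3 ± 1.34 CPM in clone 2 and 7.87 ± 0.559 CPM in WT (0.98 ± 0.18, adjusted p = 0.00101). Mmp9, a gelatinase, had 4 pooled counts in clone 1, 2 in clone 2 and 19 in WT, a level 13.7 times lower in the clones, interval 5.27 to 42.0 (adjusted p = 0.000224). Mmp2, the other gelatinase, fell by 0.45 ± 0.11 on the log2 scale (adjusted p = 0.00494).

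Of 15 ligands and receptors known to bind these proteoglycans, 10 were tested, 2 were called higher and 3 lower, with a median of 0.11. Over all tested genes the shares were 16.6% higher and 18.2% lower. Tgfb1, the growth factor held by decorin and biglycan, averaged 12.1 ± 0.392 CPM in clone 1, 9.98 ± 1.82 CPM in clone 2 and 17.3 ± 0.0122 CPM in WT (-0.73 ± 0.16, adjusted p = 0.00353). Ccn2, connective tissue growth factor, averaged 1883 ± 61.9 CPM in clone 1, 1191 ± 23.1 CPM in clone 2 and 786 ± 128 CPM in WT (0.85 ± 0.14, adjusted p = 0.000380). Ccn4 rose by 0.83 ± 0.20 (adjusted p = 0.00559), and Igf1r, a receptor reported to bind decorin, fell by 0.63 ± 0.11 (adjusted p = 0.000518), both on the log2 scale.

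The collagens that these proteoglycans bind differed by chain, and Col12a1 also differed by clone. Of 11 chains, 10 were tested, 3 were called higher and 6 lower, with a median of -0.75. Over all tested genes the shares were 16.6% higher and 18.2% lower. Col1a1, of the main fibril collagen, averaged 528 ± 17.8 CPM in clone 1, 600 ± 72.0 CPM in clone 2 and 316 ± 60.7 CPM in WT (0.75 ± 0.13, adjusted p = 0.000819). Col3a1, of thin reticular fibrils, averaged 169.6 ± 8.50 CPM in clone 1, 193 ± 21.95 CPM in clone 2 and 637 ± 293 CPM in WT (-1.90 ± 0.18, adjusted p = 3.43e-06). Col12a1, a fibril-associated chain, was at 10.1 ± 2.82 CPM in clone 1, 0.194 ± 0.00688 CPM in clone 2 and 7.38 ± 4.23 CPM in WT. By clone it was called lower in clone 2 (-5.42 ± 0.51, adjusted p = 5.38e-06) and not called in clone 1 (0.21 ± 0.28, adjusted p = 0.618). Its call in the mean of both clones (-2.61 ± 0.36, adjusted p = 9.96e-05) was lost when the clones were fitted as 1 group (0.661). Col2a1, the cartilage fibril chain, fell by 2.39 ± 0.47 on the log2 scale (adjusted p = 0.00163), a call lost without WT replicate 2 (-1.66, adjusted p = 0.183).

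Other proteoglycans of the matrix and cell surface gave 4 tested genes of 12, with 0 called higher, 3 lower and a median of -0.45. Agrn (agrin, of basement membranes) averaged 44.8 ± 0.511 CPM in clone 1, 43.0 ± 2.26 CPM in clone 2 and 82.8 ± 7.20 CPM in WT (-1.0 ± 0.11, adjusted p = 1.42e-05). Of 6 hyaluronan and link protein genes only Has2, a hyaluronan synthase, was tested, at 1.84 ± 0.954 CPM in clone 1, 0.642 ± 0.251 CPM in clone 2 and 8.74 ± 0.315 CPM in WT (-3.10 ± 0.29, adjusted p = 2.71e-06). Over all 9 lists, 14 of 59 tested genes were called higher (23.7%) and 21 lower (35.6%), beside the 16.6% and 18.2% of all tested genes. The lists were chosen with earlier results of these data known, so these shares cannot be read as an excess among partner genes. Of 32 called partner genes picked for size, 16 lost the call under at least 1 alternative. These included Pxylp1, B3gat3 and B4galt7 of the linker, Chst3, Chst7 and Chsy1 of chondroitin sulfate, Mmp14, Lrp1, Col5a1, Col5a2, Hspg2 and Cspg4, whose log2 fold changes lay between -0.61 and 0.85.

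**Figure D4:**
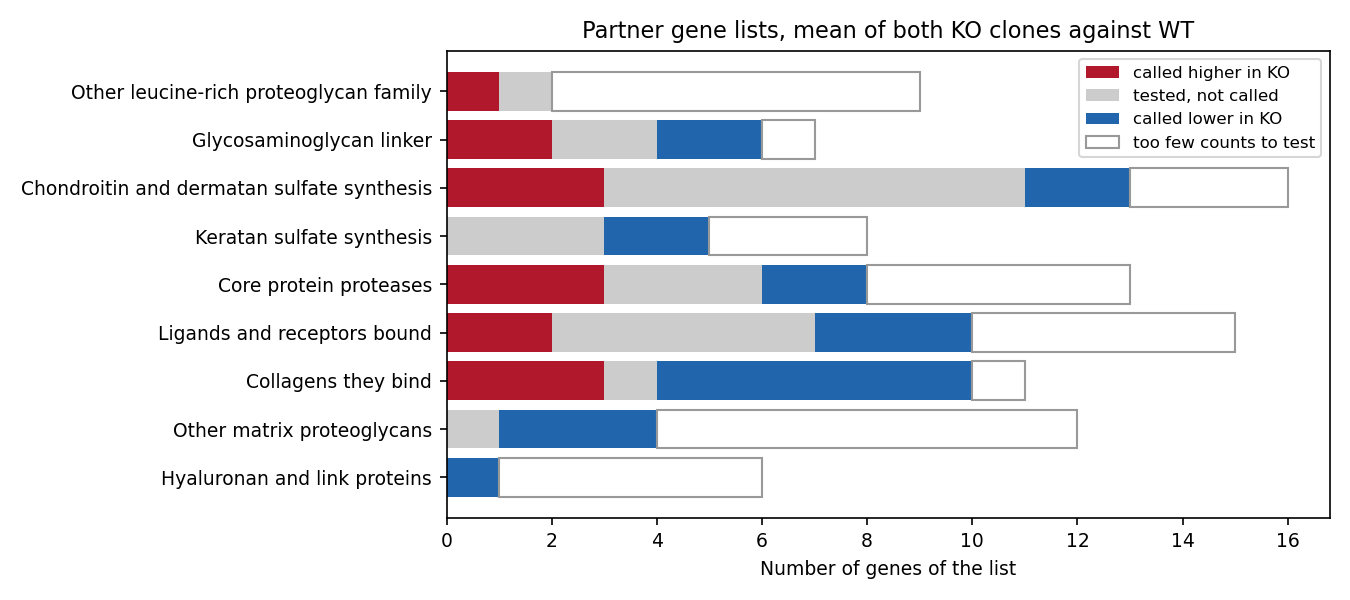
Number of genes in each partner list that were called higher in the mean of both KO clones than in WT (red), tested but not called (grey), called lower (blue) or too low in counts to be tested (open), at an adjusted p below 0.05 in edgeR. Collagens have 6 of 10 tested chains called lower and 3 called higher, beside 18.2% lower and 16.6% higher over all tested genes.

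The genes whose levels followed each member most closely over the 6 libraries were found by Euclidean distance between centred log2 CPM values of protein-coding genes. For Dcn these were Osbp2 (distance 0.66), Mamstr (0.70) and Foxf1 (0.82). Like Dcn, these were at or near 0 in the clones (group means up to 0.159 CPM) and averaged 4.22 to 9.62 CPM in WT. For Fmod they were Itln1 (0.93), which also lies on chromosome 1, Atp8a1 (1.53) and Tmem176a (1.65). Itln1 averaged 7.32 CPM in clone 1, 0.454 CPM in clone 2 and 0 CPM in WT. For Bgn, Sema3f (0.05), Rps3a1 (0.08) and Tiprl (0.09) were closest, and for Ogn, Arhgap26 (0.85), Arap3 (0.88) and Tomm6 (0.92). Group means of Arhgap26, Arap3 and Tomm6 were 0.525 to 1.40 CPM, near the floor of WT replicate 1 (0.775 CPM), where counting error is large.

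Summed levels of marker genes are given here for each list, without a test of the sums. The summed level of 10 fibroblast markers was 7565 to 8326 CPM in KO libraries and 9504 to 11337 CPM in WT. Vim made up a large part of it, at 3445 to 3777 CPM in KO libraries and 5072 and 5261 CPM in WT. In the mean of both clones 1 of the 10 was called higher (Col1a1) and 6 lower, beside 16.6% and 18.2% of all tested genes. Of 4 tendon markers, Tnmd and Thbs4 had 0 counts everywhere, and the sum was 9.60 to 13.4 CPM in KO libraries and 5.94 to 7.30 CPM in WT. The 5 cartilage markers summed to 10.8 to 13.5 CPM in KO libraries and 17.4 to 19.4 CPM in WT, with Matn3 at 0. The 5 bone markers summed to 13.6 to 17.2 CPM in KO libraries and 11.1 to 15.6 CPM in WT, with Ibsp at 0. The 4 smooth muscle markers summed to 1041 to 1080 CPM in clone 1, to 159 to 169 in clone 2 and to 800 to 996 in WT. The 4 skeletal muscle markers summed to 20.7 to 21.2 CPM in clone 1, to 11.2 to 11.5 in clone 2 and to 6.71 to 8.17 in WT, with Myod1 and Myog at 0. The 5 blood markers summed to 12.0 to 18.3 CPM in KO libraries and 15.4 to 18.6 CPM in WT, with Adgre1 and Cd3e at 0. Endothelial markers were low, at 1.29 to 1.77 CPM in KO libraries and 3.87 to 4.39 CPM in WT, with Kdr at 0. Adipocyte (1.37 to 2.52 CPM and 1.29 to 1.41 CPM) and epithelial markers (1.20 to 2.08 CPM and 1.03 to 1.23 CPM) were low as well. The part of these marker levels in the Dcn and Fmod results was not tested.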

How the data were processed

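Stranded TruSeq libraries were prepared from rRNA-depleted total RNA, per the labels' protocols. Reads were viewed with FastQC and aligned with STAR 2.6.0c to GRCm38, per the submitters' processing notes. The authors deposited raw counts per Ensembl gene for each strand setting, for an annotation release that was not given in the sources used here. Counts on the reverse strand entered every test except the alternative that ignored strand. The rows that name no gene (46.6% to 50.5% of reads) were left out. Symbols and lengths came from GENCODE M21, which matched 54079 of 54146 identifiers, and promoter windows from RefSeq, which held 7 of the 9 genes.

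Genes were kept by filterByExpr (minimum count 10), scaled by TMM and fitted over 6 libraries with 3 residual degrees of freedom in edgeR 4.0.16 (R 4.3.3). As a check of the code, the fit was run on counts simulated with the same change in both clones. This check does not bear on genes that differ between the clones. DESeq2 1.42.0, limma-voom 3.58.1, other scalings, filters and strand settings, a fit of both clones as 1 group, and leaving out each library were alternatives. Intervals and floors of 3 counts cover counting error only. Replicates differed by more than sampling noise (chi-square per degree of freedom 13.6 in WT to 22.2 in clone 2).

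The named genes are Mki67, the 9 members, tested relatives, up to 3 largest called rises and falls of each partner list, neighbouring genes and the 3 genes most alike each member above 1 CPM. The members and lists were chosen with earlier results of these data known.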

Additional observations from a re-analysis of the deposited data

Results flagged for a closer look

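Several genes differed between KO clone 2 and KO clone 1 by edgeR's quasi-likelihood test of that difference, adjusted over all genes. Fmod was lower in clone 2 by a log2 difference of -3.97 (adjusted p = 1.26e-06), with 11 and 14 counts in clone 2 and 226 and 219 in clone 1.

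Among the partner genes, B4galt4 had 0 counts in clone 2 and was at least 135-fold lower there than in clone 1 (adjusted p = 1.72e-07). Col12a1 was lower in clone 2 by a log2 difference of -5.63 (adjusted p = 6.11e-06). Lrp1, an endocytic receptor, differed by -0.87 (adjusted p = 0.00181), Ccn2 by -0.67 (adjusted p = 0.0256), Pxylp1, a phosphatase of the linker, by -0.64 (adjusted p = 0.0216) and Hspg2, which encodes perlecan, by -0.58 (adjusted p = 0.0303), all lower in clone 2. Htra1 was higher in clone 2 by a log2 difference of 0.66 (adjusted p = 0.0419). The calls on Ccn2, Pxylp1, Hspg2 and Htra1 depended on single libraries. Ccn2 lost its call in 4 of 6 fits with 1 library left out (any KO library, adjusted p up to 0.329), and Htra1 in the same 4 (up to 0.344) as well as in DESeq2 and without scaling factors. Pxylp1 (up to 0.369) and Hspg2 (up to 0.351) each lost theirs in 3 of 6, without clone 1 replicate 1, clone 2 replicate 1 or clone 2 replicate 2. The calls on Fmod, B4galt4, Col12a1 and Lrp1 held in all 6 such fits.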

How the results depend on the processing

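Pairing of the libraries by replicate number was not shown, and 2 libraries a group cannot exclude it. Same-numbered libraries deviated together with correlations of -0.11 (clone 2 and clone 1), 0.27 (clone 1 and WT) and -0.09 (clone 2 and WT). With the replicate number as a block, 4874 genes were called for both clones against WT, 4447 for clone 1, 3955 for clone 2 and 635 for clone 2 against clone 1, against 4561, 4154, 3592 and 465 without it, and no call on the 9 genes changed. Without a low-count filter 813 genes were called between the clones. In DESeq2 1 of the 9 genes was called in clone 2 against WT in place of 2. With both clones fitted as 1 group, 1 of the 9 genes and 23 partner genes (35 otherwise) were called. In that fit B4galt4 showed no change, at 2.13e-05 on the log2 scale (adjusted p = 1.00), since its mean is then taken on raw levels. Leaving out 1 library gave 3359 to 4449 called genes for both clones against WT, 2205 to 4348 for clone 1, 1668 to 4010 for clone 2 and 156 to 1207 between the clones, and 1 to 2 of the 9 genes in clone 2 against WT. Over the fold changes of the 4 tested genes, 126 of 128 values stayed on their side of the threshold (called ones with the same sign) under other settings and 93 of 96 with a library left out, and the 5 exceptions were Fmod. Depth limits Lum, Podn, Prelp, Aspn and Omd, for which changes under the floors could not be seen. Per kilobase levels depend on the length used, as the longest Bgn transcript gives 1299 TPM in clone 1, 1298 in clone 2 and 1002 in WT. Levels over protein-coding genes alone, chosen after seeing the data, gave 1458, 1548 and 1338 TPM in the same order.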
